A study of Homo sapiens with 24 samples.

Results

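Human T/C-28a2 chondrocytes labelled as transfected with WNK2 and cultured in sorbitol were compared with cells of the same line labelled as control. RNA-seq of 4 libraries in each group was used. The 8 libraries were taken by their labels, WNK2 trans Sor and WT Ctr, from 24 libraries in 6 groups of 4. Osteoarthritis (OA) changes the osmolarity around chondrocytes, and the study asked what raised WNK2 and chronic hyperosmotic stress do together to the transcriptome of these cells. T/C-28a2 is an immortalised line from human costal cartilage, so all libraries come from 1 genetic background and nothing in the labels states separate donors. P-values measure the spread between cultures of this line only. That spread was estimated jointly over all 24 libraries, so SEs and p-values do not rest on the 8 compared libraries alone.

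By the labels and the study's methods, WT Ctr cells were untransfected and were kept in isotonic medium. By the same sources, WNK2 trans Sor cells were transfected with a WNK2 expression plasmid by lipofection for 48 hours. They were then kept for 7 days in medium with 100 mM sorbitol. The control was neither transfected with an empty plasmid nor exposed to sorbitol, so the plasmid, the lipofection and the sorbitol cannot be told apart in this comparison. Libraries of the groups WT Sor and WNK2 trans Ctr (n = 4 each) are given beside it. Their labels name only sorbitol for WT Sor and only WNK2 transfection for WNK2 trans Ctr. By the study's methods, WT Sor cells were untransfected and kept in 100 mM sorbitol for 7 days. WNK2 trans Ctr cells were, by the methods, transfected for 48 hours and kept in isotonic medium. The comparisons share libraries: WT Ctr is the reference of 3 of them, and WNK2 trans Sor enters 3. The 8 libraries of WNK2- cells, in which the gene had been disrupted by genome editing, entered the joint estimate of the spread but no comparison here.

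WNK kinases (with no lysine) sense cell shrinkage and low chloride, and phosphorylate SPAK and OSR1, which in turn set the activity of the cation-chloride cotransporters that restore cell volume. Cells held in hypertonic medium also accumulate organic osmolytes, in part through the transcription factor NFAT5 and its targets. Chondrocytes make the collagens and proteoglycans of cartilage, and in OA they release interleukins and matrix proteases that break this matrix down.

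The 8 libraries held between 14153002 and 19054291 counted reads. Of 62703 gene identifiers, 16600 were tested. The 4 WNK2 trans Sor libraries lay apart from the 12 other WT libraries on the first principal component, which held 64.8% of the variance of the 500 most variable genes on the log2 CPM scale (counts scaled to library size). WT Ctr replicate 2 stood apart from the other 3 on the second component (30.95 against 4.99 to 10.5) and had the largest spread around its group (SD of log2 ratios 0.769, against 0.469 to 0.631 in the other 7 libraries). It also had the fewest genes with a count (17619, against 19518 to 21468).

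**Figure D1:**
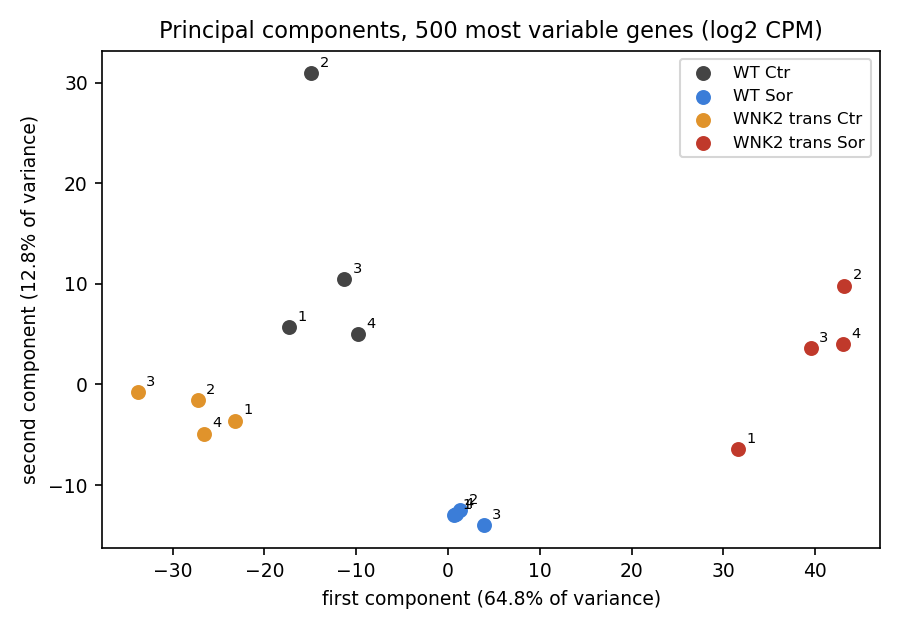
Principal components of log2 CPM over the 500 most variable genes in the 16 WT libraries, with 1 point per library, its replicate number beside it and the share of variance on each axis. The WNK2 trans Sor libraries lay between 31.6 and 43.2 on the first component and the other libraries between -33.8 and 3.9, with WT Ctr replicate 2 highest on the second component.

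WNK2 was the first gene examined because it is the targeted gene. It lies at chr9:93184916-93320572 on the plus strand (GRCh38, GENCODE 29; coordinates below are from the same source). Its normalised counts were 3097, 1441, 2133 and 3409 in the libraries labelled WT Ctr and 3793, 2245, 2659 and 3433 in those labelled WNK2 trans Sor. The groups overlapped, and the log2 fold change was 0.27 (SE 0.19, adjusted p = 0.274, edgeR), so WNK2 was not called against this control. With a correction for GC content and transcript length, added after the data were seen, its log2 fold change was 0.60 and it was called (adjusted p = 8.65e-06, in a range of 8.65e-06 to 0.759 over its alternatives). WNK2 was far lower in the libraries labelled WT Sor, at 303 ± 19.0, and WNK2 trans Ctr, at 252 ± 52.8 (SD, n = 4 each). Edited cells, in which the gene had been disrupted, gave 407 ± 13.9 in WNK2- Ctr and 359 ± 46.1 in WNK2- Sor, so the means of WT Sor and WNK2 trans Ctr lay below those of the edited cells. The log2 fold change of WNK2 trans Ctr over WT Ctr was -3.32. These values go against the labels of WT Sor, WNK2 trans Ctr, WT Ctr or several of them, and the counts do not show which. Groups are therefore named by the labels of their libraries throughout. A difference between them is a difference between libraries so labelled, and no direction is credited to sorbitol or to transfection. The counts do not separate plasmid from endogenous transcripts.

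Between WNK2 trans Sor and WT Ctr, 6509 genes changed at an adjusted p under 0.05, which is 39.2% of those tested. Of these, 3280 were higher (19.8%) and 3229 lower (19.5%), and 2263 differed by at least 2-fold (13.6%). The balance of directions depended on the processing, with 3716 higher and 2535 lower under upper-quartile scaling (59.4% of the calls higher, against 50.4%). The median log2 fold change over all genes was -0.02. The libraries of both groups did not overlap for 3920 genes (23.6%), with WNK2 trans Sor above for 2208 (13.3%) and below for 1712 (10.3%). Against WT Sor, 5254 genes differed (31.7%; 2675 higher, 16.1%, and 2579 lower, 15.5%), and against WNK2 trans Ctr 7972 (48%; 4034 higher, 24.3%, and 3938 lower, 23.7%). Over WT Ctr, 4008 genes differed in WT Sor (24.1%; 11.4% higher and 12.7% lower) and 2082 in WNK2 trans Ctr (12.5%; 5.57% higher and 6.98% lower). These shares are the background for the counts of gene groups below. When only the 8 compared libraries were fitted, 3018 of 14853 genes tested were called (1793 higher and 1225 lower), of which 3016 were among the 6509. The spread was then taken from these 8 libraries instead of all 24. Counts of gene lists within the 8 libraries alone are to be read beside these lower totals.

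**Figure D2:**
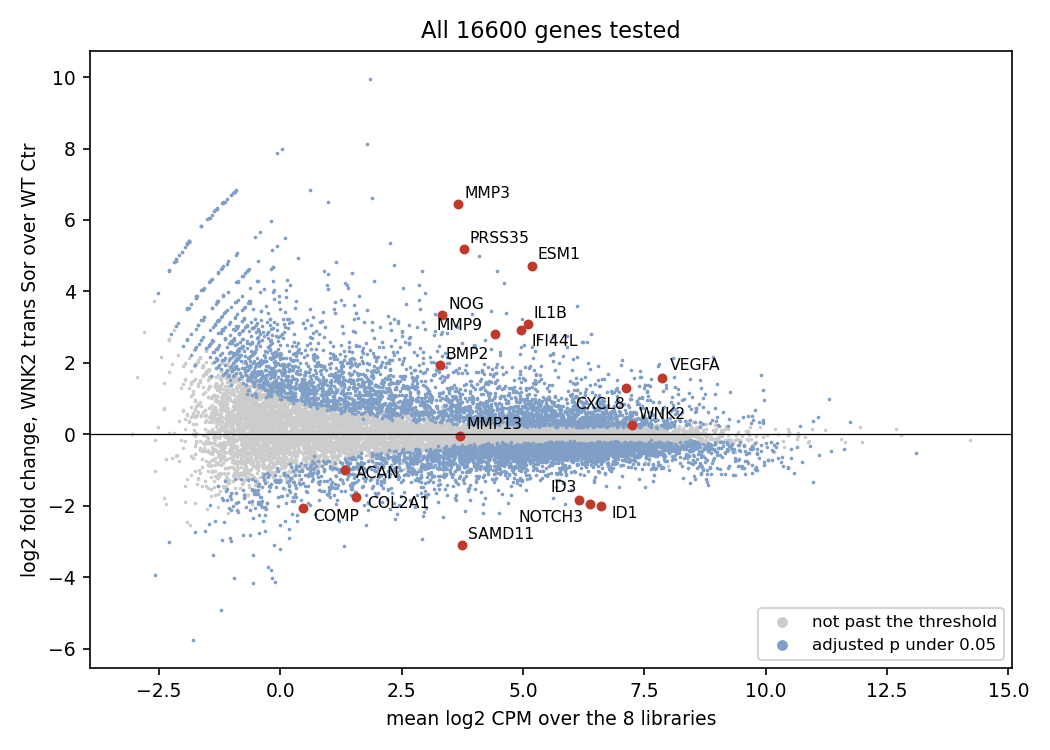
Log2 fold change of WNK2 trans Sor over WT Ctr against mean log2 CPM over the 8 libraries, with 1 point per gene for the 16600 genes tested, blue for an adjusted p under 0.05 and grey for the others, and selected genes in red. Among called protein-coding genes with at least 3 mean log2 CPM and no overlap between groups, the changes ran from MMP3 at 6.44 to SAMD11 at -3.11, while WNK2 (0.27) and MMP13 (-0.03) lay near 0.

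MMP3, or stromelysin 1, which degrades proteoglycans and activates procollagenases, rose most among genes with a mean of at least 3 log2 CPM (chr11:102835801-102843803, minus strand). Its normalised counts were 2.41, 4.74, 7.57 and 5.31 in WT Ctr and 271, 409.5, 631 and 483 in WNK2 trans Sor. Every WNK2 trans Sor library was far above every WT Ctr library, and the log2 fold change was 6.44 (SE 0.28, adjusted p = 5.87e-15), an 86.6-fold rise from a level of a few reads. WT Sor was at 21.9 ± 2.96 and WNK2 trans Ctr at 4.06 ± 1.59, so WNK2 trans Sor exceeded both, by 4.34 over WT Sor and 6.78 over WNK2 trans Ctr on the log2 scale (adjusted p = 2.18e-13 and 7.64e-16).

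PRSS35, a serine protease-like gene, had 12.1, 11.8, 16.2 and 11.9 normalised counts in WT Ctr and 584, 484, 411 and 448 in WNK2 trans Sor (log2 fold change 5.19, SE 0.27). WT Sor was also far above WT Ctr (289 ± 32.1), and the difference from WT Sor was 0.74 (SE 0.20, adjusted p = 0.0057). ESM1, or endocan, a proteoglycan secreted in response to growth factors and cytokines, showed another pattern. It had 50.6, 27.2, 43.3 and 73.0 normalised counts in WT Ctr and 1124, 1238, 1292 and 1436 in WNK2 trans Sor, without overlap (log2 fold change 4.72, SE 0.18). ESM1 was at 61.0 ± 11.4 in WT Sor and at 7.16 ± 2.81 in WNK2 trans Ctr.

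Among the other large rises, MYH15, a myosin heavy chain gene, rose by 4.99 on the log2 scale, and the neighbouring whey acidic protein family genes WFDC3 and WFDC10B on chromosome 20 by 4.58 and 4.23. PRRX1, a homeobox gene of limb mesenchyme, had 201, 204, 178 and 191 normalised counts in WT Ctr and 2067, 2519, 2365 and 2343 in WNK2 trans Sor (log2 fold change 3.58, SE 0.12). PRRX1 was intermediate in WT Sor, at 1061 ± 53.3. The teneurin gene TENM4, the cell adhesion gene NTM, the receptor gene IL1RAPL1, the BMP antagonist gene NOG and TMEM171 rose by 3.22 to 3.44. Over WT Sor, the log2 differences of the 12 largest rises ran from 0.74 (PRSS35) to 4.37 (ESM1), in a comparison that shares the WNK2 trans Sor libraries.

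The largest falls were smaller. SAMD11, which encodes a sterile alpha motif protein, had 681, 197, 367 and 506 normalised counts in WT Ctr and 103, 26.1, 33.8 and 43.1 in WNK2 trans Sor (log2 fold change -3.11, SE 0.34, adjusted p = 9.93e-08). The groups did not overlap, although both varied widely. COL8A2, a collagen of basement membranes, the glycosyltransferase gene MGAT3 and SHISAL1 fell by 2.13 to 2.21, and EFNA2, an ephrin ligand gene, by 2.07. OLFML2A and the cartilage matrix gene VWA1 fell by 1.95 and 1.93. Also among the largest falls were ID1, ID3, NOTCH3 and NRARP, targets and members of BMP and Notch signalling that are described below. The log2 differences of these 11 falls ran from -3.46 (SAMD11) to -1.44 (NRARP) over WT Sor and from -4.08 (SAMD11) to -2.39 (ID3 and OLFML2A) over WNK2 trans Ctr.

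**Figure D3:**
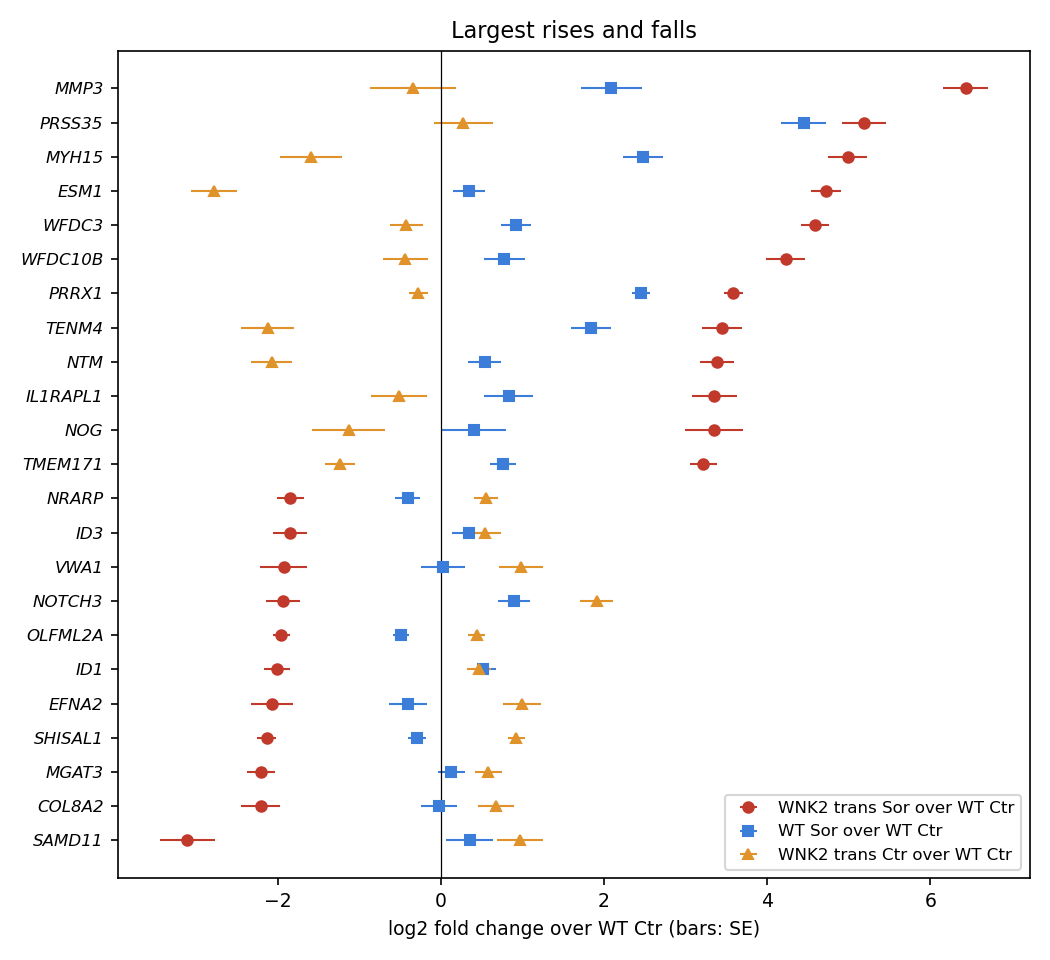
Log2 fold change over WT Ctr, with its standard error, of 12 of the largest rises and 11 of the largest falls in WNK2 trans Sor (circles), beside WT Sor (squares) and WNK2 trans Ctr (triangles) for the same genes. The rises ran from 3.22 to 6.44, and the falls lay between -3.11 and -1.85. The 3 series share the WT Ctr libraries.

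Catabolic and inflammatory genes of the OA joint were examined next. Of 37 listed matrix proteases and inhibitors, 28 were tested, with a median log2 fold change of -0.29. Of these 7 were higher (25%, against 19.8% of all genes) and 10 lower (35.7%, against 19.5%). The rises were large and the falls moderate. MMP9, or gelatinase B, had 134, 68.7, 71.4 and 119 normalised counts in WT Ctr and 878, 516, 683 and 650.0 in WNK2 trans Sor, a log2 fold change of 2.80 (SE 0.20, adjusted p = 6.94e-11) with no overlap. It was also 1.91 above WT Sor (adjusted p = 2.79e-08). ADAMTS6, a secreted metalloprotease gene, rose from 387 ± 82.8 to 2318 ± 547 (log2 fold change 2.58, SE 0.16), while WT Sor was at 413 ± 10.5. MMP11 fell by 1.63, ADAMTS10 by 1.11 and MMP2, or gelatinase A, by 0.97 on the log2 scale.

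The main collagenase and aggrecanase genes of cartilage did not follow MMP3. MMP13 had 223, 224, 264 and 249.6 normalised counts in WT Ctr and 187, 248, 243 and 259 in WNK2 trans Sor (log2 fold change -0.03, SE 0.16, adjusted p = 0.88), and its sign changed with the processing. ADAMTS5 was at 173 ± 47.9 and 170.1 ± 33.7 (log2 fold change -0.02, SE 0.22, adjusted p = 0.951). Both groups overlapped for both genes. MMP13 was nonetheless 0.98 above WT Sor and 0.91 above WNK2 trans Ctr on the log2 scale (adjusted p = 4.66e-05 and 5.03e-05), which were at 119 ± 11.8 and 125 ± 17.2. MMP1 was listed at 0 counts in all 24 libraries. So were 8 of 82 ribosomal protein genes, RPL32 among them, and 15 of 78 subunits of the respiratory chain and ATP synthase, SDHA among them, which every cell uses. A gene at 0 in every library is therefore only listed so, and whether the counting or the files set it to 0 is not given in the sources used here.

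Cytokines, chemokines and genes of NF-kB feedback were mostly higher. Of 46 listed genes 35 were tested, 19 were higher (54.3%, against 19.8% of all genes) and 5 lower (14.3%, against 19.5%). The median log2 fold change was 0.67, or 0.194 over the 31 members with at least 10 counts in every library. The higher genes ran from CXCL1 at 0.63 to IL33 at 4.19, and 16 of the 19 did not overlap between groups. The 19 were already chosen as called, while over all tested genes, called or not, 13.3% lay above without overlap. IL1B, the central cytokine of cartilage breakdown, had 169, 131, 89.8 and 135 normalised counts in WT Ctr and 1349, 1105, 925 and 1085 in WNK2 trans Sor. All 4 WNK2 trans Sor libraries were at least 5-fold above the highest control library, and the log2 fold change was 3.09 (SE 0.17, adjusted p = 4.79e-13). The other interleukin 1 gene, IL1A, rose from 32.4 ± 17.1 to 128 ± 26.4 (log2 fold change 2.00, SE 0.26).

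CXCL8, the neutrophil chemokine interleukin 8, had 1184, 1869.9, 1523 and 1313 normalised counts in WT Ctr and 3527, 4499.9, 2999 and 3404 in WNK2 trans Sor (log2 fold change 1.29, SE 0.12, adjusted p = 1.36e-08). The other two groups lay on the other side of WT Ctr, at 641 ± 42.2 in WT Sor and 260.3 ± 4.24 in WNK2 trans Ctr. The values over these groups were 2.49 and 3.79 on the log2 scale (adjusted p = 4.99e-13 and 9.65e-17). CSF3, the granulocyte colony-stimulating factor gene, rose by 1.89, and RIPK2, a kinase gene of innate signalling, by 0.67. Of the 5 lower genes, the chemokine genes CXCL16 and CXCL6 fell by 0.94 and 0.66 on the log2 scale. Without WNK2 trans Sor replicate 1 the list had 8 lower genes. Without the other 16 libraries 17 of 34 were higher and 2 lower, beside 1793 and 1225 of all 14853 genes tested there.

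The promoters of 2 cytokine genes that rose, CXCL8 and IL6, are printed because both hold a match to the kB-like letters GGNNTTTCC, the kind of site that NF-kB binds. They were chosen after their values were seen. IL6 had 1289, 1660.3, 1071 and 1191 normalised counts in WT Ctr and 3642, 3037, 2422 and 2445 in WNK2 trans Sor (log2 fold change 1.15, SE 0.13, adjusted p = 1.67e-07). The sequences are the 250 bases before the RefSeq start, on the gene's strand, 5′ to 3′ (GRCh38.p14), with the match in capitals. CXCL8 is at chr4:73740319-73740568 (plus strand) and IL6 at chr7:22726950-22727199 (plus strand).
CXCL8: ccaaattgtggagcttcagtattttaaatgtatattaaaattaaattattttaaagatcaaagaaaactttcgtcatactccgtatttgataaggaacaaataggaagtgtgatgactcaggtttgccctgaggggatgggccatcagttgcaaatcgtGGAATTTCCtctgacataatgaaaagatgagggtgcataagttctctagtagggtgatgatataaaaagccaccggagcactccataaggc
IL6: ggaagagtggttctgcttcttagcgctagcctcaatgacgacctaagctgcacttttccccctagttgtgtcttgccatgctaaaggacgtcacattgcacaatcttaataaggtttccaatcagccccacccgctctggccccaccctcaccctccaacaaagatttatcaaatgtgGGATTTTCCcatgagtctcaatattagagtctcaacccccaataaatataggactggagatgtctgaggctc
Searched on both strands, the letters were found in 12 of the 28 tested list members that had a window (42.9%). They were in 6 of the 15 that were higher (40%) and in 1 of the 3 that were lower (33.3%, CXCL6). Over all RefSeq genes they were in 1497 of 27305 windows (5.48%). The list was chosen partly for NF-kB feedback, so its share beside all windows is no result of these data. A match is a run of letters in this window and not a measured binding site.

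Interferon-induced genes were mostly higher. These genes encode antiviral proteins and are switched on through interferon receptors. Of 45 listed genes 33 were tested, 24 were higher (72.7%, against 19.8% of all genes) and none lower, with a median log2 fold change of 0.63. Leaving out WT Ctr replicate 2 gave 23 higher and 1 lower. The 24 ran from EIF2AK2 at 0.35 to RSAD2 at 3.14. Of these called genes 19 did not overlap between groups, while 13.3% of all tested genes, called or not, lay above without overlap. IFI44L had 80.8, 124, 182 and 141 normalised counts in WT Ctr and 943, 1084, 1016 and 976 in WNK2 trans Sor. The 2 ranges were more than 5-fold apart, with a log2 fold change of 2.93 (SE 0.19, adjusted p = 2.1e-11). MX1, a GTPase that blocks viral replication, had 63.9, 66.3, 59.5 and 63.7 against 302, 239.9, 273 and 212 (log2 fold change 2.02, SE 0.17), and the kinase gene CMPK2 rose by 2.01.

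WT Sor and WNK2 trans Ctr gave other counts. In WT Sor 5 of the 33 genes were higher than in WT Ctr and 4 lower (median 0.04). These counts were near the shares over all genes, 11.4% higher and 12.7% lower. In WNK2 trans Ctr 1 was higher and 11 lower (median -0.22), against 5.57% and 6.98% of all genes. WNK2 trans Sor was above WT Sor for 24 genes and below it for 1 (median 0.78), against 16.1% and 15.5% of all genes. It was above WNK2 trans Ctr for 24 and below it for 2 (median 0.97), against 24.3% and 23.7%. IFI44L was at 302 ± 92.6 in WT Sor and 153 ± 26.5 in WNK2 trans Ctr.

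Promoters of 3 higher interferon-induced genes are shown for their matches to GAAA, any 2 bases and GAAA, the core of the interferon-stimulated response element (ISRE). The 3 genes were chosen after their values were seen. IFI6 rose from 303 ± 61.1 to 1058 ± 337 (log2 fold change 1.80, SE 0.18) and ISG15, a ubiquitin-like modifier, from 1224 ± 208 to 2298 ± 1015 (log2 fold change 0.91, SE 0.19). The windows are built as above, and lie at chr1:78620198-78620447 (plus strand) for IFI44L, chr1:27672193-27672442 (minus strand) for IFI6 and chr1:1013247-1013496 (plus strand) for ISG15. Capitals mark the matches.
IFI44L: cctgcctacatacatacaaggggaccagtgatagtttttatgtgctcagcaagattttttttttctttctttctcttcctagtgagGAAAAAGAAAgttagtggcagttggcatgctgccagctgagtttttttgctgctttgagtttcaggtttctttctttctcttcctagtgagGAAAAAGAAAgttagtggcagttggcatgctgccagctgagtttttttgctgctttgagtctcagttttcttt
IFI6: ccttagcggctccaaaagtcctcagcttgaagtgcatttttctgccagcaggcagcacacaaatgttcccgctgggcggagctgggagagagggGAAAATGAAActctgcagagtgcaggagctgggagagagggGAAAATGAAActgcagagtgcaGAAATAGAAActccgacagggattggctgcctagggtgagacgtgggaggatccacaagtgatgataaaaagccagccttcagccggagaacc
ISG15: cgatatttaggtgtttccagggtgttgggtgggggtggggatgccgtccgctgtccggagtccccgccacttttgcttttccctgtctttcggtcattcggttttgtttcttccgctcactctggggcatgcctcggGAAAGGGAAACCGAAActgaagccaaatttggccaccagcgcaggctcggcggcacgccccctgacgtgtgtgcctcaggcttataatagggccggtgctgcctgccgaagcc
There were 2 matches in the IFI44L window, 3 in IFI6 and 2 overlapping ones in ISG15. On either strand the letters occurred in 13 of 26 tested list members with a window (50%), in 9 of the 20 that were higher (45%) and in 839 of the 27305 windows (3.07%). The genes were listed as interferon-induced, so their share beside all windows is no result of these data.

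Among genes of the cartilage matrix, 9 of 18 tested were lower (50%, against 19.5% of all genes). In the same list 1 was higher (5.56%, against 19.8%) and 8 did not pass, with a median log2 fold change of -0.74. Of the 31 listed genes 13 were not tested, and 3 of these were listed at 0 in all 24 libraries. With at least 10 counts in every library the median was -0.329. The higher gene, HAPLN1, was far more abundant than the others among the 10 chondrocyte markers. COL2A1, the major collagen of cartilage, had 115, 54.5, 67.1 and 94.2 normalised counts in WT Ctr and 21.7, 20.1, 25.4 and 29.4 in WNK2 trans Sor. The groups did not overlap, and the log2 fold change was -1.76 (SE 0.24, adjusted p = 3.33e-06). COMP, which organises collagen fibrils, had 50.6, 30.8, 45.4 and 26.6 against 16.9, 0.00, 6.34 and 13.8 (log2 fold change -2.06, SE 0.44, adjusted p = 0.000621). These are low levels, with 18 to 95 raw counts of COL2A1 and 0 to 42 of COMP in the 8 libraries.

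COL9A3 and COL9A2, which encode chains of collagen IX on the fibril surface, fell by 2.08 and 1.53, and CILP2 fell by 1.63 on the log2 scale. MATN3, which encodes matrilin 3, fell from 63.2 ± 19.7 to 21.3 ± 16.6 (log2 fold change -1.59, SE 0.36, adjusted p = 0.00101), a call that was lost within the 8 libraries alone (0.0537, in a range of 4.76e-05 to 0.0537 over all alternatives). ACAN, the gene of the core proteoglycan aggrecan, had 77.2, 17.8, 68.2 and 75.7 in WT Ctr and 32.5, 23.1, 19.0 and 45.0 in WNK2 trans Sor, with WT Ctr replicate 2 below every WNK2 trans Sor library and the other 3 controls above all of them. Its log2 fold change of -0.98 (SE 0.36, adjusted p = 0.0321) lost the call without WT Ctr replicate 1, 3 or 4 or WNK2 trans Sor replicate 2 or 3 (adjusted p = 0.1, 0.0709, 0.0877, 0.0849 and 0.102), and over all alternatives its adjusted p ran from 0.00166 to 0.15. The only higher gene was HAPLN1, the link protein that ties aggrecan to hyaluronan, at 1488 ± 195 and 2157 ± 429.5 (log2 fold change 0.54, SE 0.12). Within the 8 libraries alone 5 of 15 genes were lower and 1 higher, beside 1225 and 1793 of all 14853 genes tested there.

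The medians were lower against the other two groups. Against WT Sor 12 of the 18 genes were lower and 1 higher (15.5% and 16.1% of all genes), with a median of -1.12. Against WNK2 trans Ctr 13 were lower and 4 higher (23.7% and 24.3% of all genes), with a median of -1.75. COL2A1 was at 58.7 ± 13.1 in WT Sor and 179 ± 14.2 in WNK2 trans Ctr, and aggrecan at 112 ± 11.3 and 156 ± 45.2, so WNK2 trans Sor was lowest of the 4 groups for both genes. The median GC content of this list was 59.4%, and with the correction for GC content and length 9 genes were lower and 3 higher.

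Other collagens moved in both directions. Of 25 tested, 11 were lower (44%, against 19.5% of all genes) and 6 higher (24%, against 19.8%), with a median of -0.22. COL1A1, the main collagen of bone and fibrous tissue, fell from 53175 ± 9096 to 21271 ± 5111 (log2 fold change -1.32, SE 0.13), COL5A1 by 1.11 and COL3A1 by 0.95. COL13A1, a membrane-bound collagen, rose by 1.27 and COL8A1 by 0.81. SPARC, a matrix protein that binds collagen, fell by 1.10.

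The line was checked against cell type markers, since the labels call it chondrocytes. SOX9, the master regulator of chondrocytes, was listed at 0 counts in all 24 libraries, which, as for MMP1, says nothing of its expression, and COL9A1, COL11A1 and CNMD had at most 6 counts in any of the 8 libraries. The summed level of 10 chondrocyte markers was 93.3 to 107 CPM in WT Ctr and 114 to 168 in WNK2 trans Sor, most of it HAPLN1 (8359 raw counts over the 4 WNK2 trans Sor libraries, against 94 of COL2A1). Of 7 fibroblast markers 6 were detected, with summed levels of 2676 to 3790 CPM in WT Ctr and 1225 to 1943 in WNK2 trans Sor. In these, COL1A1, COL3A1 and the growth factor receptor gene PDGFRB fell, FAP rose by 1.69 on the log2 scale and THY1 was listed at 0. Of the endothelial markers CDH5 and PECAM1 rose by 2.26 and 0.91, and the summed level of the 6 went from 35.7 to 41.6 CPM up to 103 to 110 CPM. Almost all of it was CDH5 and PECAM1. KDR, VWF and CLDN5 were not called (log2 fold changes 1.85, 0.16 and -0.82), and TEK was not tested. Epithelial markers gave 603 to 934 and 768 to 1217 CPM, almost all of it KRT8 and KRT18, and haematopoietic markers 7.24 to 10.4 and 3.75 to 6.31 CPM, almost all CD14. Fewer cells of a kind and less RNA per cell cannot be told apart in these bulk libraries.

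**Figure D4:**
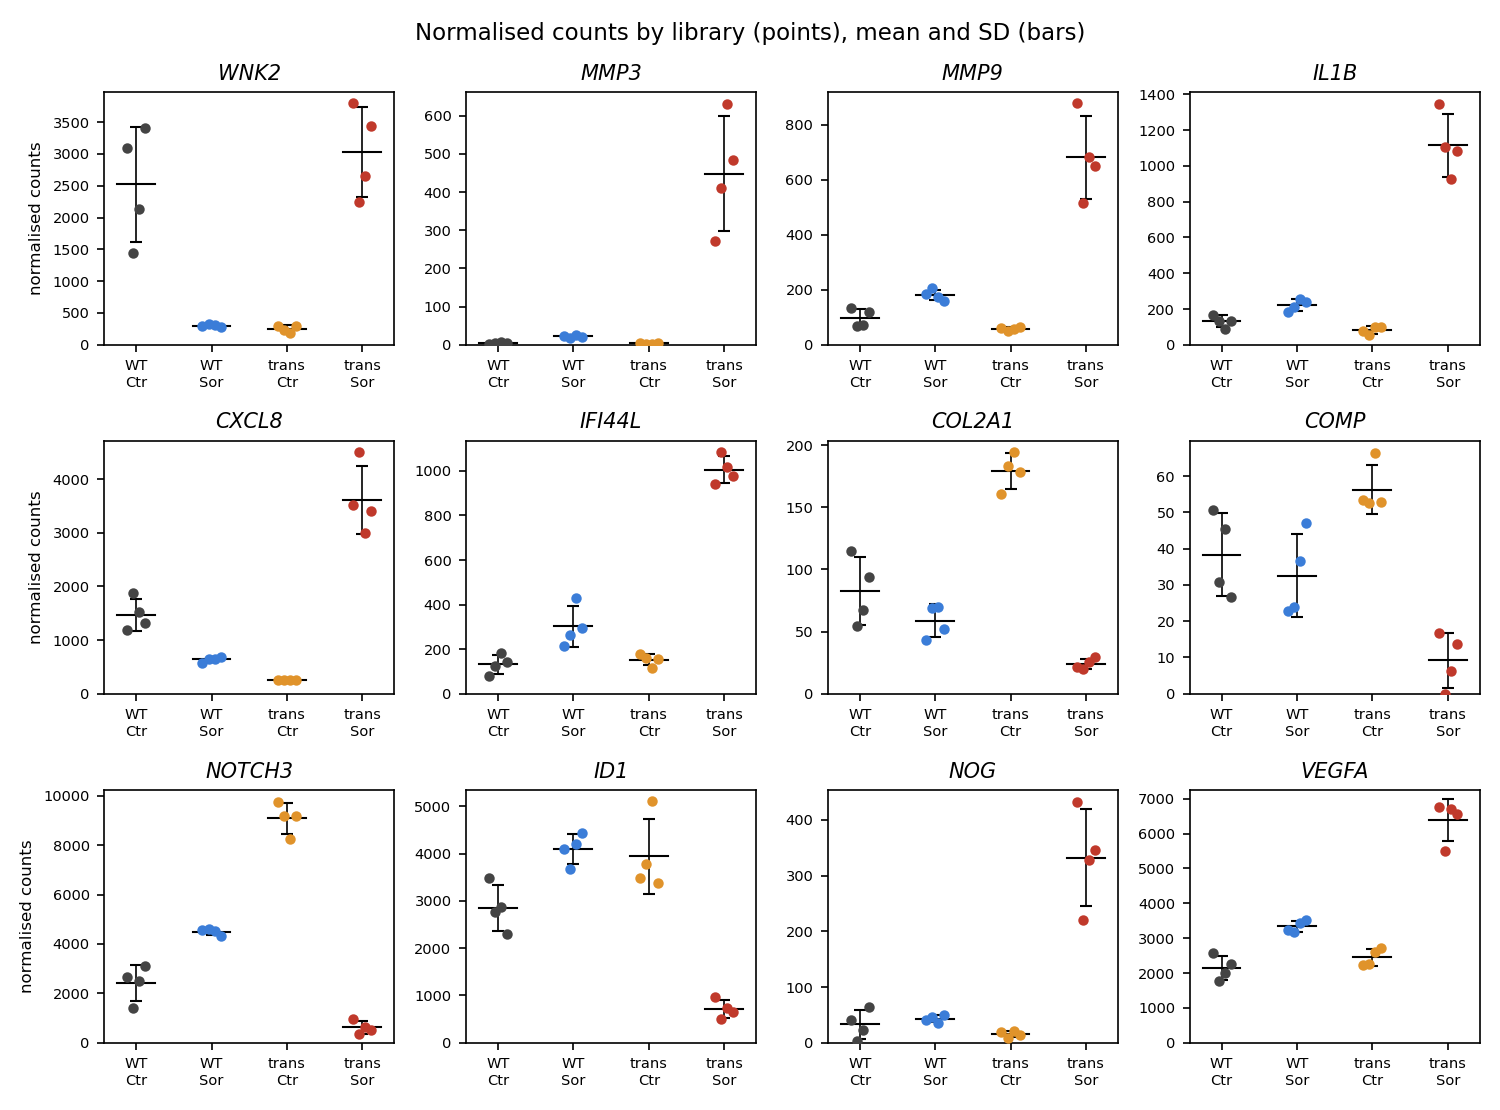
Normalised counts (linear axes from 0) of 12 genes in WT Ctr, WT Sor, WNK2 trans Ctr and WNK2 trans Sor, with 1 point per library and a bar for the mean and SD of the 4 libraries. MMP3, MMP9, IL1B, IFI44L, NOG and VEGFA were highest in every WNK2 trans Sor library, NOTCH3 and ID1 were lowest there, and WNK2 was high in WT Ctr and WNK2 trans Sor and low in WT Sor and WNK2 trans Ctr.

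Developmental signalling pathways of cartilage are given by ligands, antagonists, receptors and targets. In BMP and TGF-beta signalling, 37 of 41 listed genes were tested (median log2 fold change -0.06). Of these 10 were higher (27%, against 19.8% of all genes) and 9 lower (24.3%, against 19.5%). BMP2, a ligand that drives chondrocyte differentiation, had 76.0, 67.5, 61.7 and 85.0 normalised counts in WT Ctr and 259.9, 229.9, 359 and 263 in WNK2 trans Sor (log2 fold change 1.94, SE 0.17). It did not differ detectably from WT Sor (log2 difference 0.20, SE 0.16, adjusted p = 0.338), which was at 242 ± 17.2. Secreted BMP antagonists moved in both directions. NOG, noggin, had 41.0, 3.55, 22.7 and 65.0 in WT Ctr and 432, 219.8, 329 and 346 in WNK2 trans Sor (log2 fold change 3.35, SE 0.36), and GREM1, gremlin 1, rose from 2904 ± 250.1 to 7338 ± 1296 (log2 fold change 1.34, SE 0.12). CHRD, chordin, fell by 1.85 on the log2 scale (adjusted p = 0.000665, edgeR) at a low level.

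The classical BMP target genes moved the other way. ID1, an inhibitor of differentiation that BMP receptors induce through SMADs, had 3482, 2769, 2866 and 2293 normalised counts in WT Ctr and 969, 501, 734 and 643 in WNK2 trans Sor (log2 fold change -2.01, SE 0.16, adjusted p = 3.88e-10). No WNK2 trans Sor library reached any WT Ctr library. ID3 fell from 2054 ± 696 to 571 ± 200.2 (log2 fold change -1.85, SE 0.21), and SMAD6, an inhibitory SMAD that BMP signals also induce, by 0.92 on the log2 scale. ID1 was at 4100.4 ± 316 in WT Sor and 3942 ± 799 in WNK2 trans Ctr, both above WT Ctr, with log2 differences of 0.52 and 0.47.

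In Notch signalling, transcripts of a receptor and of some targets were lower. Notch receptors are cut on ligand binding and their intracellular part joins RBPJ and a Mastermind coactivator at target genes. Of 26 tested genes 11 were lower (42.3%, against 19.5% of all genes) and 3 higher (11.5%, against 19.8%). The median log2 fold change was -0.26. NOTCH3 had 2666, 1397, 2485 and 3094 normalised counts in WT Ctr and 975, 364, 646 and 537 in WNK2 trans Sor, without overlap (log2 fold change -1.94, SE 0.21, adjusted p = 7.07e-08). The other two groups were above WT Ctr, at 4494 ± 129 in WT Sor and 9083 ± 631 in WNK2 trans Ctr. The direct targets NRARP and HEY1 fell from 352 ± 64.4 to 98.1 ± 26.8 and from 219 ± 50.3 to 89.9 ± 23.3. The higher genes were the coactivator genes MAML3 (log2 fold change 1.79) and MAML2 (0.84) and NUMB, an inhibitor of Notch (0.44). The list has a median GC content of 58.7%, and with the correction for GC content and length its median was -0.08, with 10 genes lower and 5 higher. Within the 8 libraries alone 5 of 24 were lower and 3 higher, beside 1225 and 1793 of all 14853 genes tested there.

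WNT genes were split. Of 40 tested, 12 were higher (30%, against 19.8% of all genes) and 15 lower (37.5%, against 19.5%), with a median of -0.10. Among ligands, WNT9A and WNT7B each rose by 1.79, and WNT5B, which acts in the growth plate, from 274 ± 59.3 to 572 ± 87.3 (log2 fold change 1.07, SE 0.14). WNT6 went from 246 ± 85.1 to 31.9 ± 19.8 normalised counts (log2 fold change -2.94, SE 0.35). Of the receptors, ROR1 rose by 1.16, and FZD7 and FZD3 fell by 1.01 and 0.95.

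FGF and ERK feedback genes had 14 of 29 members higher (48.3%, against 19.8% of all genes) and 9 lower (31%, against 19.5%), with a median of 0.32. The ligand genes FGF5 and FGF2 rose by 1.78 and 1.68 and the ephrin receptor gene EPHA2 by 1.52, while the receptor genes FGFR3 and FGFR4 fell by 1.71 and 1.19. FGFR3, which restrains growth plate chondrocytes, went from 756 ± 177 to 232 ± 90.7 normalised counts. FGF2 did not differ detectably from WT Sor (log2 difference 0.19, adjusted p = 0.514), whereas FGF5 was 2.37 above it. In a list of YAP and TEAD factors and their targets, 15 of 27 genes were higher (55.6%, against 19.8% of all genes). In the same list 6 were lower (22.2%, against 19.5%), with a median of 0.29. Of the factor genes, TEAD2 and TEAD3 fell by 1.33 and 0.51 on the log2 scale, and WWTR1 rose by 0.28. F3, tissue factor, had 262, 317, 293 and 356 in WT Ctr and 1283, 1545, 1392 and 1696 in WNK2 trans Sor (log2 fold change 2.27, SE 0.11), and ANKRD1, a standard YAP target, rose by 2.06. IGFBP3 fell by 0.92 in WNK2 trans Sor and was 2.53 above WT Ctr in WNK2 trans Ctr, both on the log2 scale.

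**Figure D5:**
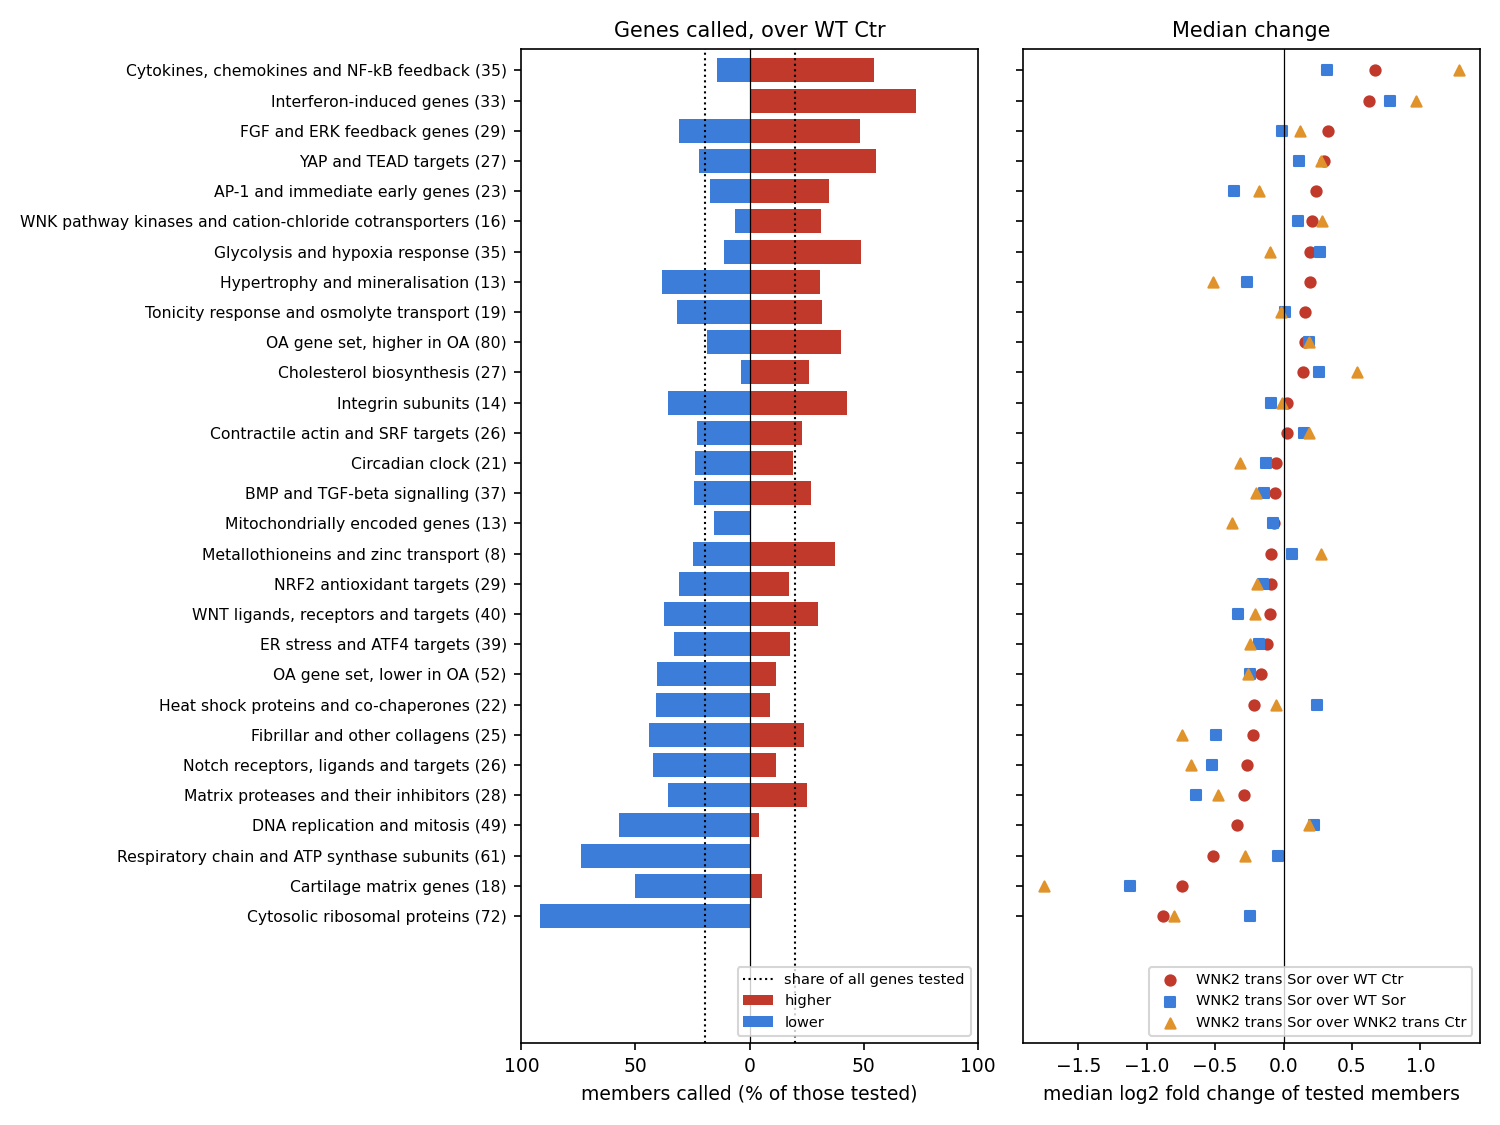
Left, the share of tested members of each of 29 gene lists that were higher (red) or lower (blue) in WNK2 trans Sor than in WT Ctr, with dotted lines at the shares over all genes tested (19.8% and 19.5%) and the number tested in brackets. Right, the median log2 fold change of each list over WT Ctr, WT Sor and WNK2 trans Ctr. The medians over WT Ctr were 0.67 for the cytokine list and 0.63 for the interferon list, with ranges of 0.194 to 0.73 and 0.554 to 0.691 over the alternatives, and -0.88 for ribosomal proteins.

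The WNK pathway and the response to tonicity were examined because sorbitol is an osmotic stimulus. Of 16 tested WNK pathway genes 5 were higher (31.2%, against 19.8% of all genes) and 1 lower (6.25%, against 19.5%), with a median of 0.21. STK39, which encodes SPAK, had 902, 1072, 1009 and 1037 normalised counts in WT Ctr and 1516, 2237, 1855 and 1951 in WNK2 trans Sor (log2 fold change 0.91, SE 0.10, adjusted p = 9.32e-08). It was lower in WT Sor (867 ± 43.0) and WNK2 trans Ctr (621 ± 55.5), and the log2 difference from WT Sor was 1.12. SGK1, a kinase that WNKs and hypertonicity regulate, rose by 1.06, and WNK4 by 0.80. Their log2 differences from WT Sor were 0.20 and -0.12 (adjusted p = 0.0575 and 0.496). WNK1 and WNK3 gave log2 fold changes of 0.12 and 0.27 (adjusted p = 0.475 and 0.182), with overlapping groups. The potassium chloride cotransporter gene SLC12A4 fell by 0.39 on the log2 scale, and this call was lost within the 8 libraries alone (adjusted p = 0.0975, in a range of 0.000285 to 0.183).

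Osmolyte genes were compared with WT Sor as well. AKR1B1, aldose reductase, which makes sorbitol inside cells under tonicity stress, had 9140.0, 10106, 7076 and 7281 normalised counts in WT Ctr and 32839, 25970.2, 23825 and 24392 in WNK2 trans Sor (log2 fold change 1.67, SE 0.11). WT Sor was at 23703 ± 305 and the log2 difference from it was 0.17 (adjusted p = 0.233). NFAT5 went from 2429 ± 901 to 4743 ± 1259 (log2 fold change 0.97, SE 0.27, adjusted p = 0.00559) with overlapping groups, and the amino acid transporter gene SLC38A2 rose by 0.50. TRPV4, a calcium channel that senses osmolarity in chondrocytes, fell by 1.20, from 262 ± 31.3 to 115 ± 34.0. In all, 6 of 19 tested genes of this list were higher (31.6%, against 19.8% of all genes) and 6 lower (31.6%, against 19.5%), with a median of 0.15. HSPA1A fell by 0.65, in counts that cannot be told apart from those of its near-identical copy HSPA1B.

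Genes of protein synthesis and of respiration were lower as groups. Of 72 tested genes of cytosolic ribosomal proteins 66 were lower (91.7%, against 19.5% of all genes) and none higher, with a median log2 fold change of -0.88. RPL31 had 14052, 13698, 9277 and 10693 normalised counts in WT Ctr and 6475, 4280.0, 3982 and 3149 in WNK2 trans Sor (log2 fold change -1.42, SE 0.17). In WT Sor 56 of the 72 were lower than in WT Ctr (median -0.64), against 12.7% of all genes. WNK2 trans Sor was below WT Sor for 12 and above it for 1, against 15.5% and 16.1% of all genes. Ribosomal protein genes have many processed pseudogenes, so reads counted on a single gene are uncertain. Of 61 tested subunits of the respiratory chain and ATP synthase 45 were lower (73.8%, against 19.5% of all genes) and none higher, median -0.52. Without WT Ctr replicate 1 or WNK2 trans Sor replicate 4 there were 28 lower. Within the 8 libraries alone 15 of 60 were lower, beside 1225 of all 14853 genes tested there. UQCRQ and ATP5F1E fell by 1.04 and 0.93 on the log2 scale. Against WT Sor 2 of the 61 were lower (median -0.04), beside 15.5% of all genes.

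Cell cycle genes were lower than in WT Ctr and partly higher than in WT Sor. Of 49 genes of DNA replication and mitosis 28 were lower (57.1%, against 19.5% of all genes) and 2 higher (4.08%, against 19.8%). The median log2 fold change was -0.34. CDK1, which drives entry into mitosis, had 5860.2, 8344, 7877 and 6229.9 normalised counts in WT Ctr and 3896, 4759.8, 3937 and 3651 in WNK2 trans Sor (log2 fold change -0.80, SE 0.11), and cyclin A2 (CCNA2) fell by 0.79. The higher genes were cyclin D1 (CCND1), from 2019 ± 400.4 to 5141 ± 659, and the cell cycle inhibitor CDKN1A, by 0.89 on the log2 scale. Another inhibitor gene, CDKN1B, had the largest fall of the 28 lower genes (log2 fold change -0.89). In WT Sor 37 of the 49 were lower than in WT Ctr, against 12.7% of all genes. Over WT Sor, WNK2 trans Sor had 20 higher and 8 lower (median 0.22), against 16.1% and 15.5% of all genes.

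Hypoxia and glycolysis genes were higher in 17 of 35 (48.6%, against 19.8% of all genes) and lower in 4 (11.4%, against 19.5%). The median of this list was 0.19, and 2 were lower without WNK2 trans Sor replicate 4. VEGFA, the angiogenic factor that hypertrophic chondrocytes release, had 2579, 1782, 1988 and 2265 normalised counts in WT Ctr and 6776, 5491, 6718 and 6565 in WNK2 trans Sor (log2 fold change 1.57, SE 0.10, adjusted p = 1.12e-11). It was also 0.93 above WT Sor on the log2 scale (adjusted p = 9.21e-08). Adrenomedullin (ADM) rose by 1.80 and HIF1A, which encodes the hypoxia-inducible factor, by 1.55 on the log2 scale. Among 13 tested genes of hypertrophy and mineralisation 4 were higher (30.8%, against 19.8% of all genes) and 5 lower (38.5%, against 19.5%). Their median was 0.19, but 0.057 with the GC and length correction and -0.044 within the 8 libraries alone. RUNX2, the regulator of hypertrophy, was at 782 ± 80.4 and 1043 ± 153 with overlapping groups (log2 fold change 0.42, SE 0.11, adjusted p = 0.00436), and this call was lost within the 8 libraries alone (0.055, in a range of 0.000455 to 0.161 over all alternatives). RUNX1 rose by 0.85 and ANKH, a pyrophosphate transporter gene that limits mineralisation, fell by 0.45.

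Stress and metabolic lists were mixed, beside shares over all genes of 19.8% higher and 19.5% lower. For ER stress and ATF4 targets 7 of 39 genes were higher (17.9%) and 13 lower (33.3%), with a median of -0.12. The lower genes were 7 without WNK2 trans Sor replicate 3 and 8 without replicate 4. STC2, a secreted stress glycoprotein gene, rose from 5185 ± 664 to 13682 ± 1456 (log2 fold change 1.40) and the chaperone gene PDIA4 fell by 0.79. Heat shock proteins had 2 of 22 higher (9.09%), led by HSPB8 (1.21), and 9 lower (40.9%), led by HSPB1 (-1.09), with a median of -0.22. In the NRF2 list 5 of 29 were higher (17.2%), with malic enzyme ME1 at 1.51. The 9 lower (31%) included the pentose phosphate genes TKT and TALDO1 at -0.62 and -0.54 (median of the list -0.09). Of the cholesterol genes 7 of 27 were higher (25.9%) and 1 lower (3.7%), with a median of 0.14. However, 4 were higher without WT Ctr replicate 1, 3 without WNK2 trans Sor replicate 3 and none within the 8 libraries alone.

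MT2A, a metallothionein that binds zinc, rose from 12426 ± 2281 to 24332 ± 4020.0 (log2 fold change 0.97) and was below WT Ctr in WT Sor and WNK2 trans Ctr (6454 ± 418 and 5763 ± 2129). Of 8 tested metallothionein and zinc transport genes 3 were higher (37.5%, against 19.8% of all genes) and 2 lower (25%, against 19.5%), with a median of -0.09. For AP-1 and immediate early genes 8 of 23 were higher (34.8%, against 19.8% of all genes), with FOSL1 at 1.58 and KLF6 at 1.23. The median of this list was 0.24, and 4 were lower (17.4%, against 19.5% of all genes), or 7 without WT Ctr replicate 2. Contractile genes had 6 of 26 higher (23.1%), with CALD1 at 2.63, and 6 lower (23.1%), with CNN1 at -1.21 (median of the list 0.02). These shares were near those over all genes (19.8% and 19.5%). The lower genes were 3 without WT Ctr replicate 2 or WNK2 trans Sor replicate 4. Integrin subunits had 6 of 14 higher (42.9%, against 19.8% of all genes) and 5 lower (35.7%, against 19.5%), with a median of 0.02. The lower subunits were 3 without WT Ctr replicate 1 or WNK2 trans Sor replicate 2. ITGA10, a collagen receptor of chondrocytes, rose by 2.47 and ITGA11, a fibroblast collagen receptor, fell by 0.66. Of 13 genes encoded in mitochondrial DNA 2 were lower (15.4%, against 19.5% of all genes) and none higher, with a median of -0.07. There were 4 lower without WT Ctr replicate 2, and none was called within the 8 libraries alone.

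Clock genes had 4 of 21 tested members higher (19%) and 5 lower (23.8%), with a median of -0.05. These shares were near those over all genes (19.8% and 19.5%). NPAS2, a partner of BMAL1 in the clock, had 201, 188, 231 and 207 normalised counts in WT Ctr and 922, 1169, 1061 and 1319 in WNK2 trans Sor. The groups were over 3-fold apart, and the log2 fold change was 2.43 (SE 0.11, adjusted p = 3.42e-14). RORA, a nuclear receptor that activates BMAL1, rose by 1.40 and CLOCK by 0.98, and TEF, an output gene of the clock, fell by 0.88. NPAS2 was at 374 ± 18.9 in WT Sor and 137 ± 17.9 in WNK2 trans Ctr.

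Finally, genes that the study had listed as changed in OA were set beside the comparison. The study derived the lists from published RNA-seq and microarray data, mostly on OA cartilage and in part on normal chondrocytes treated with fibronectin fragments. All of their genes were among those tested here, and whether the lists had been limited to genes that this line expresses is not given in the sources used here. Of 80 genes listed as higher in OA 32 were higher here (40%, against 19.8% of all genes) and 15 lower (18.8%, against 19.5%). The lower genes were 9 without WNK2 trans Sor replicate 4, and the median log2 fold change was 0.15. AMTN, an enamel-related matrix protein gene, rose by 2.15 and FSTL1, a follistatin-like glycoprotein gene, by 2.00, while COL3A1 and IGFBP3 fell. Of 52 genes listed as lower in OA 21 were lower here (40.4%, against 19.5%) and 6 higher (11.5%, against 19.8%), with a median of -0.16. RCOR2, a corepressor gene, fell by 1.81 and KBTBD11 by 1.21, and GSTO2, a glutathione transferase gene, rose by 1.95. With the 8 libraries alone these counts were 23 higher and 3 lower, and 12 lower and 3 higher. Of all 14853 genes tested there 1793 were higher and 1225 lower.

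Gene composition moved with the comparison and was measured for all genes. The median log2 fold change was between 0.01 and 0.07 in the 6 lowest of 10 equal bins of GC content and -0.25 in the highest bin (median GC 64.2%), where 7.76% of genes were higher and 24.7% lower. Of the falls named above, COL9A3 has a GC content of 67.4%, NRARP of 67.3% and NOTCH3 of 63.1%, and the GC content of WNK2, whose value changed with the correction, is 64.2%. The part of GC content in the other changes was not tested beyond this fit.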

How the data were processed

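RNA was taken from T/C-28a2 cells, and poly(A) RNA was made into libraries with a kit that does not mark strand, so reads of a gene and of its antisense partner cannot be told apart. Per the submitters' processing notes the authors used FastQC 0.11.9, HISAT2 2.2.1, HTSeq 2.0.2 and DESeq2 1.38.3 with GRCh38, while the study's methods name other versions of HTSeq and DESeq2. The deposited values were raw counts of reads per gene, 1 file per sample. The annotation release is not given in the sources used here.

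Counts of all 24 libraries were fitted together in edgeR 4.0.16 (R 4.3.3) by the quasi-likelihood test with 6 group means, TMM scaling and filterByExpr (minimum count 10, minimum total 15), which left 16600 genes. The contrasts of WNK2 trans Sor with WT Ctr, WT Sor and WNK2 trans Ctr, and of WT Sor and WNK2 trans Ctr with WT Ctr, were two-sided, and p-values were adjusted over all genes by Benjamini and Hochberg. The SE of a log2 fold change was taken from its F statistic (change over square root of F). Normalised counts were scaled to a common effective library size. Counting error sets a floor on the precision of low genes at these depths.

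Named genes were the 12 largest rises and falls among called protein-coding genes with non-overlapping groups and at least 3 mean log2 CPM, 22 fixed genes, and up to 3 called genes per direction from each of 30 lists with at least 2 mean log2 CPM. Of these, 1 list and 2 genes are not reported here. The ends of a list's range, cell type markers and genes with a printed promoter were named beside these. Members and lists were chosen with earlier results of these data known. Gene positions came from GENCODE 29 and promoters from RefSeq (GRCh38.p14). Symbols were known for 62625 of 62703 identifiers.

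Alternatives were RLE and upper-quartile scaling, no filter and a filter of 10 counts in every library, glmTreat (minimum log2 change 0.3), a fit of the compared libraries only, a replicate block, DESeq2 1.42.0, leaving out each replicate, and a correction of each library for GC content and transcript length (splines, 5 df) chosen after the data were seen.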

Additional observations from a re-analysis of the deposited data

Results flagged for a closer look

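In 8 of 348 groups of 4 libraries of the named genes (2.3%), a library lay farther from the others than Dixon's 95% limit allows, where chance alone would pass about 1 group in 20. WT Ctr replicate 2 held 4 of the 8. It was lowest for ACAN (17.8 normalised counts, the next 68.2) and FGF2 (59.2, the next 178), and highest for P4HA1, a collagen prolyl hydroxylase (2537, the next 1836), and IGFBP3 (835, the next 626). P4HA1 fell in WNK2 trans Sor, and without WT Ctr replicate 2 its log2 fold change was -0.19 with an adjusted p of 0.0791 in edgeR, in a range of 0.000368 to 0.4 over its alternatives. WNK2 trans Sor replicate 1 held 2 of the 8. It was highest for SPARC (6424.5, the next 5234) and lowest for RUNX2 (816, the next 1092). PRSS35 was highest in WT Ctr replicate 3 (16.2, the next 12.1) and VEGFA lowest in WNK2 trans Sor replicate 2 (5491, the next 6565). Apart from ACAN, P4HA1 and RUNX2, whose groups overlapped, these genes had no overlap between WT Ctr and WNK2 trans Sor.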

How the results depend on the processing

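Of 51 counts of called genes under alternatives, 47 were within 1.5 times the reported one. WNK2 trans Sor against WT Ctr gave 3018 genes when only the compared libraries were fitted, and a minimum log2 change of 0.3 (glmTreat) gave 3721, 2642 against WT Sor and 5310 against WNK2 trans Ctr. Other settings gave between 4953 (at least 10 counts in every library) and 8134 (GC content and length, chosen after the data were seen) against WT Ctr, and DESeq2 gave 6867. Leaving out 1 library gave 5451 to 7418 genes against WT Ctr, 4032 to 6628 against WT Sor and 7117 to 8765 against WNK2 trans Ctr. With the replicate number as a block, WNK2 trans Sor against WT Ctr gave 6340 genes. The deviations of same-numbered libraries correlated at 0.458, 0.256, 0.122 and 0.056, and replicates 3 and 4 of WT Ctr did not correlate best with their own number. All 4 values are above 0, a hint of pairing in the data, but the last is not over 0.1 and no label states a pairing, so the block was kept as an alternative.

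Of the fold changes of named genes under alternatives, 2823 kept their direction and side of the threshold, 144 lost the call, 1 gained it (WNK2, with the GC correction) and 11 changed sign. These 11 were all of uncalled genes. MMP13 was at 0.0293 with upper-quartile scaling and 0.016 with at least 10 counts in every library. It ran from -0.0851 to 0.049 over all alternatives, and was above 0 without WT Ctr replicate 3 (0.0188) or WNK2 trans Sor replicate 1 (0.049). ADAMTS5 was at 0.0428 and 0.0325 under these scaling and filter settings, and at 0.0055 with only the compared libraries. Over all alternatives it ran from -0.1613 to 0.1337. It was above 0 without WT Ctr replicate 3 (0.056) or 4 (0.1337) or WNK2 trans Sor replicate 2 (0.1058). WNK1 was at -0.0879 with the GC correction. The causes were not tested. The medians of the lists of hypertrophy, WNT, BMP and TGF-beta, contractile, integrin, clock, metallothionein and mitochondrially encoded genes changed sign under some alternatives. Of the counts in gene lists, 131 of 1020 moved by over 1.5 times. Depth limits genes such as COMP and MATN3, with few reads in each library.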
